A study of Mus musculus with 12 samples.

Results

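The 43 genes described here are expressed by white blood cells in general or by phagocytes, the white blood cells that engulf particles. They were given as a list of gene symbols and were not chosen by a threshold on their values. The list was, however, chosen with earlier results of these data known. Counts over the set therefore describe it and are not an independent test. By symbol 41 of the 43 were found among the 16035 genes of the deposited table. Spi1 and Syk, which the table lists under the older symbols Sfpi1 and Sykb, were found by Ensembl identifier. All 43 passed the filter on low counts and were among the 14725 genes tested.

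The livers came from C57BL/6 mice, called WT in the sample titles, in a study of experimental nonalcoholic steatohepatitis, a liver disease with fat accumulation and inflammation. The groups were livers after 1 month of the HFCF diet and after 1 month of normal chow, both from mice aged 3 months, and livers after 3 months of the HFCF diet and after 3 months of normal chow, both from mice aged 6 months. The labels do not spell out HFCF. Each of the 4 groups held 3 libraries of total RNA from whole liver, which the study calls biological replicates, so feeding time and age moved together and could not be told apart.

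Phagocytes sense their surroundings through growth factor receptors, antibody (Fc) receptors, lectins and scavenger receptors. Engagement of these receptors sets off kinases such as Lyn and Syk, then a remodelling of actin through small GTPases such as Rac, and finally a burst of superoxide from the NADPH oxidase complex. In the healthy liver the resident phagocyte is the Kupffer cell, and monocytes from blood enter the liver in steatohepatitis. In RNA from whole liver, a change in the number of such cells and a change in the RNA per cell cannot be told apart.

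Library totals ran from 13733485 to 20277572 counts, of which the 43 genes took 7152 to 26946. On the first principal component of all genes tested, which held 42.7% of the variance, HFCF replicates 1 and 2 at 3 months lay at 60.7 and 63.8, HFCF replicate 3 at 29.3 and the other 9 libraries between -31.2 and -0.755. On the second component, with 13.2% of the variance, chow replicate 1 at 1 month lay at 36.8, against 13.3 for the next highest library. HFCF replicate 3 at 3 months and chow replicate 1 at 1 month are named below where a value rests on them. Hepatocyte markers were present in every library, and their summed level at 3 months was 52933 to 65814 CPM in the HFCF livers and 85029.7 to 88169.9 CPM in the chow livers.

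At 3 months the set stood higher in the HFCF livers almost throughout. 36 of the 43 genes rose and 0 fell by edgeR's quasi-likelihood test at a Benjamini-Hochberg adjusted p under 0.05, while 11.5% of all genes tested rose and 7.50% fell. The 7 that did not pass were Csf1r, Csf2rb, Fcgr3, Mrc1, Laptm5, Lcp2 and Btk. The estimated log2 fold change was above 0 for all 43, from 0.09 for Mrc1 to 4.21 for Ly6c2, with a median of 1.39 beside -0.00 for all genes tested. The 3 HFCF libraries lay above the 3 chow libraries for 34 of the 43 genes, against 19.3% of all genes.

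Summed over the 43 genes, the level at 3 months was 1260.4, 1154 and 814 CPM (read counts scaled to a common library size by TMM) in the HFCF livers and 672, 541 and 536 CPM in the chow livers, a ratio of means of 1.85. The lowest HFCF library, replicate 3, stood above the highest chow library. At 1 month the sums were 834, 594 and 745 CPM in the HFCF livers and 598, 559 and 567 CPM in the chow livers, a ratio of 1.26. There HFCF replicate 2 lay within the range of the chow livers, so the groups overlapped.

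The spread among HFCF livers at 3 months ran through the whole set. Replicate 3 was the lowest of its group for 42 of the 43 genes, with Mrc1 the exception. It still stood above every chow library for 35 genes, and replicates 1 and 2 both did so for 42. The median log2 level of the 43 genes relative to the chow mean was 1.59 in replicate 1, 1.42 in replicate 2 and 0.68 in replicate 3. Among the chow livers at 3 months, replicate 1 was the highest for 34 genes. These counts by library were not made over all genes, so whether the pattern is particular to the set was not tested. HFCF replicate 3 also lay apart from replicates 1 and 2 on the first principal component of all genes tested.

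**Figure D1:**
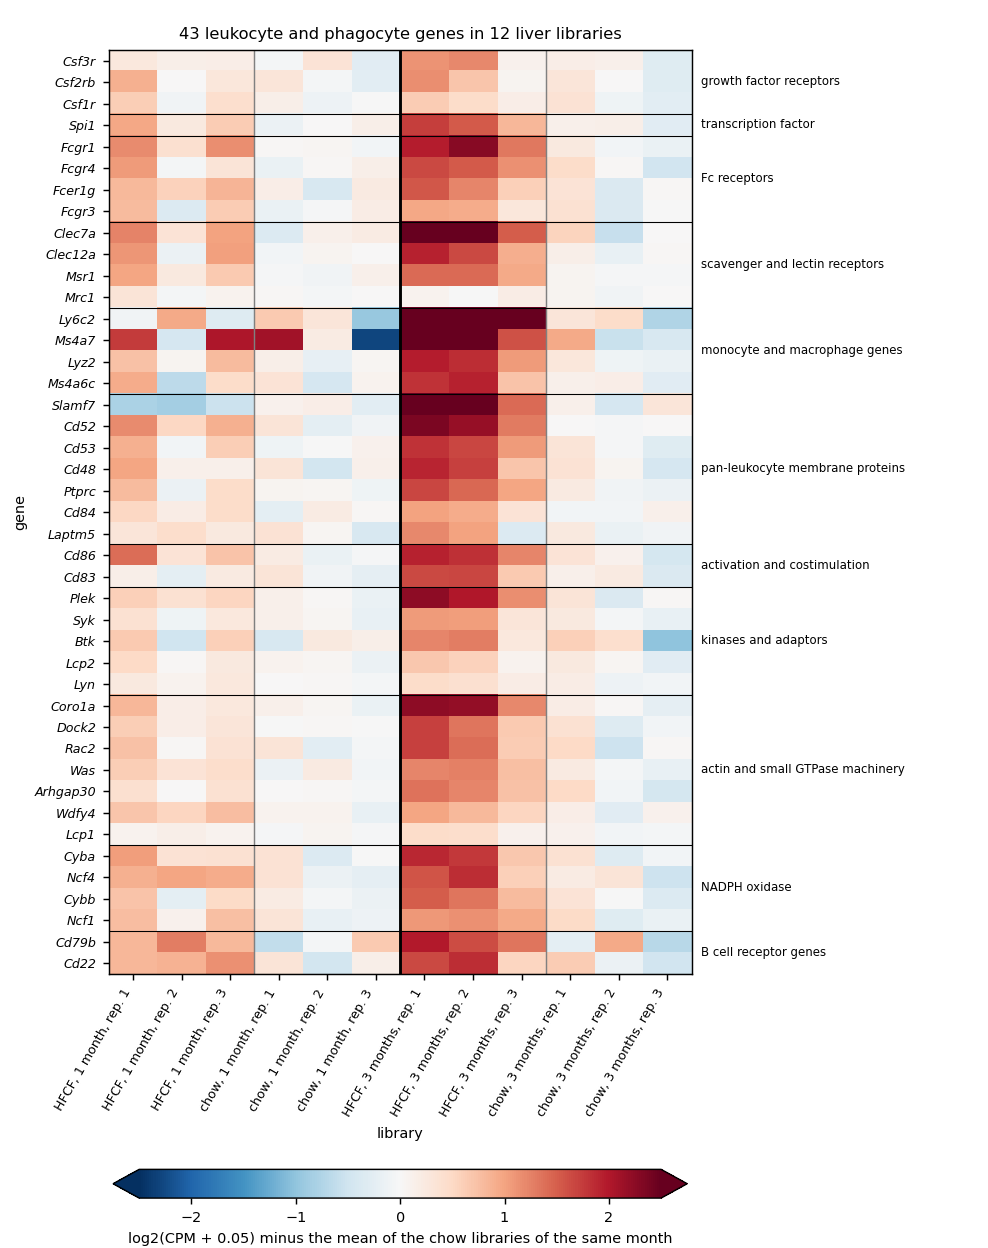
Log2(CPM + 0.05) of each of the 43 genes (rows, by role) in each of the 12 libraries (columns), minus the mean of the chow libraries of the same month, with red for higher and blue for lower and the colour saturating at ±2.5. HFCF replicates 1 and 2 at 3 months are the darkest columns, and replicate 3 had the lowest level of the 3 for 42 of the 43 genes.

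The receptors for colony-stimulating factors, the cytokines that keep myeloid cells alive and make them mature, moved least as a group: 1 of 3 rose at 3 months. Csf1r, the receptor for the macrophage growth factor, had 122, 107 and 88.1 CPM in the HFCF livers and 101, 73.1 and 65.4 CPM in the chow livers. The groups overlapped, and the test did not pass (log2 fold change 0.41 ± 0.20 (SE), edgeR adjusted p = 0.171). Csf2rb, the shared signalling chain of the GM-CSF, interleukin-3 and interleukin-5 receptors, had 13.00, 9.34 and 6.07 CPM in the HFCF livers and 7.11, 5.82 and 4.65 CPM in the chow livers. HFCF replicate 3 again lay among the chow livers (log2 fold change 0.69 ± 0.28 (SE), edgeR adjusted p = 0.105). Csf3r, the G-CSF receptor of neutrophils, rose (log2 fold change 0.90 ± 0.29 (SE), edgeR adjusted p = 0.0415), with 3.70, 3.93 and 1.79 CPM in the HFCF livers and 1.89, 1.83 and 1.35 CPM in the chow livers. HFCF replicates 1 and 2 were well above every chow liver, while replicate 3 lay within the chow range. The Csf3r call did not hold without any 1 of HFCF replicates 1 and 2 and chow replicates 1, 2 and 3, with an edgeR adjusted p of up to 0.182, nor with limma-voom or with only the groups compared. Csf2rb has a close copy, Csf2rb2, and their reads may be shared.

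Spi1 encodes PU.1, the ETS-family transcription factor on which macrophages, neutrophils and B cells depend for their development. It had 10.01, 8.77 and 5.38 CPM in the HFCF livers and 3.29, 3.33 and 2.47 CPM in the chow livers at 3 months. Every HFCF liver exceeded every chow liver, and Spi1 rose (log2 fold change 1.41 ± 0.24 (SE), edgeR adjusted p = 0.00200). The groups were also apart at 1 month, with 5.54, 3.34 and 4.37 CPM in the HFCF livers and 2.51, 2.82 and 3.12 CPM in the chow livers, but there Spi1 did not pass (log2 fold change 0.66 ± 0.25 (SE), edgeR adjusted p = 0.214).

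PU.1 is known to bind purine-rich DNA with the core GAGGAA, so the promoter windows of the set were read for these letters. The windows are RefSeq's on GRCm38.p6, from 250 bases before to 50 bases after each gene's start, and 32 of the 43 genes have at least 1. Those of 3 genes are shown, each 5′ to 3′ on the gene's own strand, because they belong to the genes with the smallest p of their role group among Fc receptors, kinases with their adaptors, and actin genes. Capitals mark GAGGAA or its reverse complement TTCCTC. The Fcgr1 window lies at chr3:96293920-96294219 (minus strand), the Plek window at chr11:17008669-17008968 (minus strand) and the Coro1a window at chr7:126704767-126705066 (minus strand).
Fcgr1: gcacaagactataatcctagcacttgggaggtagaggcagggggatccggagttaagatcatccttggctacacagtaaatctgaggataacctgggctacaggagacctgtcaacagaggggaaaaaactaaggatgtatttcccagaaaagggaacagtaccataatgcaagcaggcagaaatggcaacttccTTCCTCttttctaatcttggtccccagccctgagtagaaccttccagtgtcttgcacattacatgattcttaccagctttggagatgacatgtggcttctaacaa
Plek: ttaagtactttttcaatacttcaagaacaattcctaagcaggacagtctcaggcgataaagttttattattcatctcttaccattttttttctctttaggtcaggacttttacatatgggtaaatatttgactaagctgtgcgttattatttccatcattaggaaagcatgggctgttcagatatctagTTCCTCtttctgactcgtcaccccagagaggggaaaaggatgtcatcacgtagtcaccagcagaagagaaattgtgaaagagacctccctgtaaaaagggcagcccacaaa
Coro1a: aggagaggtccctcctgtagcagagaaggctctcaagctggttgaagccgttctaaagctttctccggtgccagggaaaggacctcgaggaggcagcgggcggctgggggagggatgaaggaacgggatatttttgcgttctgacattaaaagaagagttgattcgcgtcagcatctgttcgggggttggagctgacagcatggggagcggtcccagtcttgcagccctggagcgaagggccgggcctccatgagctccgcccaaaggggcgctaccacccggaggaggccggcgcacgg
Fcgr1 and Plek hold 1 match each, in the reverse orientation and beginning 55 and 61 bases before the start, and the Coro1a window shown holds none.

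Read on both strands, GAGGAA was present in a window of 20 of the 32 genes, or 62.5%, beside 31.3% of all 27025 genes with a window and 30.7% of the 11303 of them that the count table lists. A longer form, GAGGAAGT, which contains GAGGAA, was present for 3 of the 32 (9.38%), namely Fcgr4, Cd53 and Ly6c2, beside 3.69% of all genes with a window and 3.80% of those in the count table. A match describes letters in a window and is not a measured binding site. Genes with no match, such as Lyz2, Cyba and Coro1a, were among those that rose at 3 months. Genes with a match, such as Mrc1, Fcgr3, Laptm5, Lcp2 and Btk, were among those that did not pass. Whether a match goes with a rise was not tested.

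Among Fc receptors, which bind antibody-coated particles, 3 of 4 rose at 3 months. Fcgr1, the high-affinity IgG receptor, had 10.4, 12.9 and 6.62 CPM in the HFCF livers and 3.13, 2.48 and 2.32 CPM in the chow livers. Its lowest HFCF value was far above the highest chow value, and it rose (log2 fold change 1.91 ± 0.26 (SE), edgeR adjusted p = 0.000571). Fcgr4, an activating IgG receptor of mouse phagocytes, had 14.3, 13.2 and 10.1 CPM in the HFCF livers and 6.25, 4.64 and 3.22 CPM in the chow livers and rose (log2 fold change 1.40 ± 0.28 (SE), edgeR adjusted p = 0.00489). Fcer1g, the signalling gamma chain that these receptors share, had 11.5, 9.17 and 5.93 CPM in the HFCF livers and 4.96, 3.01 and 3.97 CPM in the chow livers. For both genes all HFCF livers stood above all chow livers, and Fcer1g rose (log2 fold change 1.16 ± 0.25 (SE), edgeR adjusted p = 0.00646). Fcgr3, a low-affinity IgG receptor, had 16.5, 16.1 and 10.2 CPM in the HFCF livers and 10.9, 6.54 and 8.32 CPM in the chow livers, with HFCF replicate 3 below the highest chow liver (log2 fold change 0.74 ± 0.29 (SE), edgeR adjusted p = 0.0951). Fcgr genes are close copies of each other, and shared reads make their separate counts uncertain.

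Scavenger and lectin receptors split, with 3 of 4 higher at 3 months. Msr1, the class A scavenger receptor that takes up modified lipoproteins, had 43.9, 43.5 and 31.7 CPM in the HFCF livers and 17.1, 16.02 and 15.97 CPM in the chow livers. The chow livers were nearly equal and all HFCF livers well above them (log2 fold change 1.28 ± 0.17 (SE), edgeR adjusted p = 0.000543). Clec7a, the receptor Dectin-1 for fungal beta-glucans, had 65.4, 51.2 and 19.3 CPM in the HFCF livers and 10.02, 4.51 and 6.82 CPM in the chow livers. Its HFCF livers were widely spread but all above the chow livers (log2 fold change 2.66 ± 0.46 (SE), edgeR adjusted p = 0.00511). Clec12a, an inhibitory myeloid lectin, had 19.6, 16.2 and 9.66 CPM in the HFCF livers and 5.71, 4.51 and 5.25 CPM in the chow livers, again without overlap (log2 fold change 1.56 ± 0.30 (SE), edgeR adjusted p = 0.00502). Mrc1, the mannose receptor carried by liver endothelium as well as macrophages, had 128, 121 and 137 CPM in the HFCF livers and 127, 114 and 122 CPM in the chow livers. The values of Mrc1 interleaved, and HFCF replicate 3, the lowest HFCF library for the other 42 genes, was its highest (log2 fold change 0.09 ± 0.10 (SE), edgeR adjusted p = 0.591).

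All 4 monocyte and macrophage genes rose at 3 months, among them Ly6c2 and Ms4a7, which had the largest fold changes of the set, at very low levels. Lyz2, the lysozyme of myeloid cells, had 199.7, 184 and 107 CPM in the HFCF livers and 62.7, 47.7 and 45.7 CPM in the chow livers. All HFCF livers exceeded all chow livers (log2 fold change 1.65 ± 0.25 (SE), edgeR adjusted p = 0.00197). Ms4a6c, a membrane protein of monocytes and macrophages, had 7.86, 8.51 and 3.66 CPM in the HFCF livers and 2.42, 2.48 and 1.80 CPM in the chow livers, also without overlap (log2 fold change 1.58 ± 0.39 (SE), edgeR adjusted p = 0.0160).

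Ly6c2, part of the Ly6C surface antigen of inflammatory monocytes, had 1.17, 0.786 and 0.759 CPM in the HFCF livers and 0.0539, 0.0654 and 0 CPM in the chow livers. Over each group this was 54 counts in the HFCF livers and 2 in the chow livers, a ratio of 21.7 with a 95% interval of 5.72 to 184 that covers counting error only. The gene rose (log2 fold change 4.21 ± 0.68 (SE), edgeR adjusted p = 0.00152), and its fitted fold change depends on the handling of such low counts. Ms4a7, a macrophage membrane protein, had 4.49, 4.54 and 1.03 CPM in the HFCF livers and 0.647, 0.196 and 0.225 CPM in the chow livers, or 215 counts in the HFCF livers and 18 in the chow livers, a ratio of 9.59 with a 95% counting interval of 5.92 to 16.5. It rose (log2 fold change 3.17 ± 0.85 (SE), edgeR adjusted p = 0.0261), with HFCF replicates 1 and 2 far above replicate 3. The calls of Ms4a7 and Ms4a6c each failed without HFCF replicate 1, HFCF replicate 2, chow replicate 2 or chow replicate 3, with edgeR adjusted p up to 0.104 and 0.0703. Lyz2, Ly6c2 and Ms4a6c have close copies in the genome, with which reads may be shared.

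Of 7 membrane proteins found across leukocytes, 6 rose at 3 months. Cd52, a small glycoprotein of lymphocytes and monocytes, had 16.9, 14.9 and 8.07 CPM in the HFCF livers and 3.29, 3.20 and 3.30 CPM in the chow livers. The chow livers were within 0.1 CPM of each other, and the HFCF livers lay far above (log2 fold change 2.03 ± 0.26 (SE), edgeR adjusted p = 0.000474). Slamf7, a receptor of the SLAM family on activated leukocytes, had 4.07, 4.84 and 1.52 CPM in the HFCF livers and 0.593, 0.392 and 0.675 CPM in the chow livers, which was 220 counts over the HFCF livers and 26 over the chow livers, a ratio of 6.79 with a 95% counting interval of 4.51 to 10.6. It rose without overlap (log2 fold change 2.67 ± 0.40 (SE), edgeR adjusted p = 0.00106). Cd53, a tetraspanin of all leukocytes, had 22.5, 20.5 and 13.5 CPM in the HFCF livers and 8.03, 6.34 and 5.25 CPM in the chow livers and rose (log2 fold change 1.52 ± 0.25 (SE), edgeR adjusted p = 0.00188). Ptprc (CD45, the phosphatase that marks white blood cells), Cd48 and Cd84 rose too, by log2 fold changes of 0.8 for Cd84 to 1.51 for Cd48, and all 3 were without overlap. Laptm5, a lysosomal protein of blood cells, did not pass (log2 fold change 0.77 ± 0.32 (SE), edgeR adjusted p = 0.122), with 22.97, 20.1 and 7.79 CPM in the HFCF livers and 11.7, 8.89 and 9.37 CPM in the chow livers. In Laptm5, HFCF replicate 3 was below all chow livers.

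Both genes of antigen presentation and costimulation rose at 3 months. Cd86, which binds CD28 on T cells, had 9.12, 8.51 and 5.59 CPM in the HFCF livers and 3.02, 2.55 and 1.72 CPM in the chow livers (log2 fold change 1.66 ± 0.28 (SE), edgeR adjusted p = 0.00198). Cd83, a marker of mature dendritic cells, had 7.67, 7.73 and 3.79 CPM in the HFCF livers and 2.64, 2.81 and 1.87 CPM in the chow livers (log2 fold change 1.39 ± 0.27 (SE), edgeR adjusted p = 0.00395). Neither gene had an HFCF liver below a chow liver.

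Kinases and adaptors downstream of these receptors were mixed, with 3 of 5 higher at 3 months. Plek encodes pleckstrin, a protein kinase C substrate of platelets and leukocytes, and had 24.4, 20.6 and 11.4 CPM in the HFCF livers and 6.41, 3.99 and 5.25 CPM in the chow livers. The HFCF livers were all well above the chow livers (log2 fold change 1.85 ± 0.24 (SE), edgeR adjusted p = 0.000591). Syk, the kinase that binds phosphorylated Fc receptor chains, had 20.3, 19.9 and 11.9 CPM in the HFCF livers and 11.4, 9.22 and 8.40 CPM in the chow livers, with replicate 3 of HFCF only just above the highest chow liver (log2 fold change 0.84 ± 0.20 (SE), edgeR adjusted p = 0.0102). Lyn, a Src-family kinase, had 41.96, 40.4 and 35.04 CPM in the HFCF livers and 34.9, 28.1 and 29.2 CPM in the chow livers, a small rise with nearly touching groups (log2 fold change 0.35 ± 0.10 (SE), edgeR adjusted p = 0.0296). The Syk call failed without HFCF replicate 2 (edgeR adjusted p = 0.0527), and the Lyn call without HFCF replicate 1 or 2 or chow replicate 2 or 3 (edgeR adjusted p up to 0.139) or with only the groups compared. Btk, a kinase of B cells and myeloid cells, had 2.99, 3.14 and 1.52 CPM in the HFCF livers and 1.94, 1.70 and 0.600 CPM in the chow livers. Its groups overlapped (log2 fold change 0.84 ± 0.40 (SE), edgeR adjusted p = 0.160), as did those of Lcp2, the adaptor SLP-76 (log2 fold change 0.45 ± 0.18 (SE), edgeR adjusted p = 0.0985).

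All 7 genes grouped as actin and small GTPase machinery rose at 3 months, counting Wdfy4, which was placed there although its known role is another. Coro1a, an actin-binding protein of haematopoietic cells, had 19.8, 19.3 and 9.72 CPM in the HFCF livers and 4.80, 4.25 and 3.60 CPM in the chow livers. Its lowest HFCF value was far above its highest chow value (log2 fold change 1.95 ± 0.26 (SE), edgeR adjusted p = 0.000637). Dock2, which activates Rac in leukocytes, had 26.01, 20.1 and 12.6 CPM in the HFCF livers and 10.3, 6.34 and 7.57 CPM in the chow livers (log2 fold change 1.28 ± 0.24 (SE), edgeR adjusted p = 0.00385), and Wdfy4, a protein used by dendritic cells in cross-presentation, had 21.6, 19.3 and 15.8 CPM in the HFCF livers and 12.2, 9.02 and 11.8 CPM in the chow livers (log2 fold change 0.78 ± 0.14 (SE), edgeR adjusted p = 0.00297). Neither gene showed overlap. Was, the Wiskott-Aldrich protein that starts actin branching, had 3.04, 3.14 and 2.21 CPM in the HFCF livers and 1.51, 1.24 and 1.12 CPM in the chow livers (log2 fold change 1.11 ± 0.24 (SE), edgeR adjusted p = 0.00619). Rac2, the Rac GTPase of blood cells, Arhgap30, a GTPase-activating protein, and Lcp1, the actin bundler L-plastin, rose by 1.27, 1.07 and 0.34 on the log2 scale, also without overlap. The Rac2 call failed without HFCF replicate 1 or chow replicate 2 (edgeR adjusted p up to 0.0564). The Lcp1 call failed without HFCF replicate 1 or 2 or chow replicate 2 or 3 (edgeR adjusted p up to 0.124) or with only the groups compared.

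The 4 subunits of the phagocyte NADPH oxidase in the set all rose at 3 months and none overlapped. Cyba, the small membrane subunit p22phox, had 20.3, 18.6 and 8.69 CPM in the HFCF livers and 7.17, 4.38 and 5.17 CPM in the chow livers (log2 fold change 1.51 ± 0.32 (SE), edgeR adjusted p = 0.00862). Ncf1, the cytosolic organizer p47phox, had 8.70, 9.03 and 7.86 CPM in the HFCF livers and 5.71, 3.27 and 3.60 CPM in the chow livers (log2 fold change 1.01 ± 0.23 (SE), edgeR adjusted p = 0.00840), and Ncf4, the cytosolic p40phox, had 3.98, 4.84 and 2.00 CPM in the HFCF livers and 1.51, 1.63 and 0.900 CPM in the chow livers (log2 fold change 1.42 ± 0.32 (SE), edgeR adjusted p = 0.00805). For Ncf1 the HFCF livers were close together, while for Cyba and Ncf4 replicate 3 was far below the other HFCF livers. Cybb, the catalytic subunit gp91phox, had the same direction (log2 fold change 1.22 ± 0.26 (SE), edgeR adjusted p = 0.0102).

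Both genes of B cells rose at 3 months at low levels. Cd79b, a chain of the B cell receptor, had 2.20, 1.70 and 1.38 CPM in the HFCF livers and 0.431, 1.05 and 0.300 CPM in the chow livers (log2 fold change 1.57 ± 0.42 (SE), edgeR adjusted p = 0.0195). Cd22, a B cell inhibitory lectin, had 3.79, 4.32 and 1.72 CPM in the HFCF livers and 1.83, 1.05 and 0.825 CPM in the chow livers (log2 fold change 1.39 ± 0.36 (SE), edgeR adjusted p = 0.0159). HFCF replicate 3 was inside the chow range for Cd22 and above it for Cd79b. Both calls failed without HFCF replicate 1, HFCF replicate 2 or chow replicate 3, and further without chow replicate 1 for Cd79b and chow replicate 2 for Cd22, with edgeR adjusted p up to 0.0817 for Cd79b and 0.0837 for Cd22.

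**Figure D2:**
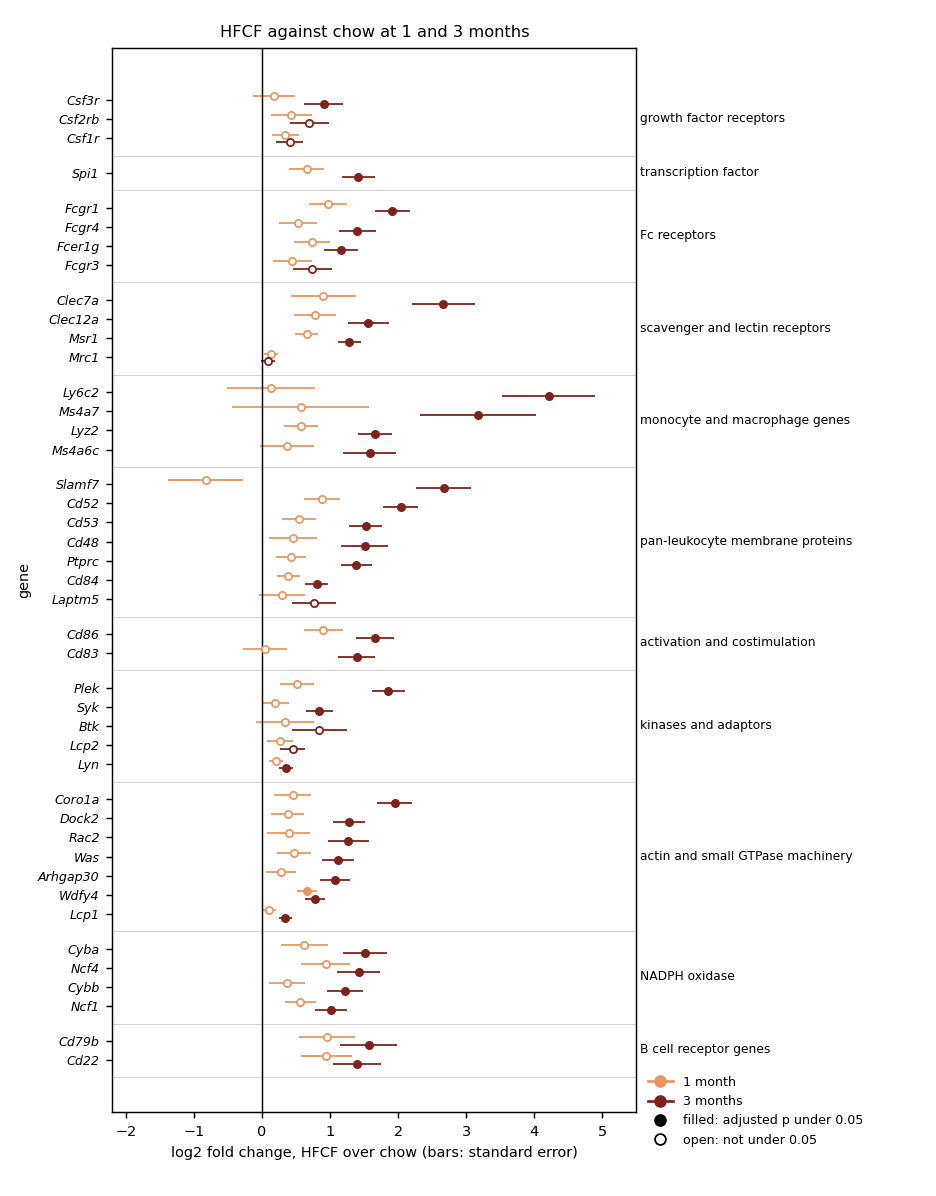
Log2 fold change of HFCF over chow (horizontal axis) with its standard error for each of the 43 genes by role, at 1 month (orange) and 3 months (dark red), filled where the edgeR adjusted p was under 0.05. At 3 months 36 points are filled, and at 1 month 1, Wdfy4.

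Across the 36 calls, 27 held without each single library and in the other alternatives in which they were tested. Ly6c2, which is among the 27, was below the stricter filter of a mean of at least 1 CPM and so was not tested there. The number of genes called was 28 without HFCF replicate 1, 28 without HFCF replicate 2, 40 without HFCF replicate 3, 34 without chow replicate 1 and 29 without either of chow replicates 2 and 3, and 39 without both libraries that stood apart. With scaling by total library size alone, 81.4% of the genes called at 3 months were higher, against 60.6% with TMM, and the median of all genes moved to 0.13. The count for the 43 genes was 36 under both.

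Compared per length, as RPKM, the order of levels was led by Lyz2 in both diets at 3 months. Lyz2 averaged 125 ± 37.9 RPKM in the HFCF livers and 39.6 ± 7.07 RPKM in the chow livers (SD, n = 3 each). Mrc1 came next in both, at 21.6 ± 1.37 RPKM in the HFCF livers and 20.3 ± 1.06 RPKM in the chow livers. Below these, Cyba averaged 20.96 ± 8.30 RPKM in the HFCF livers and 7.35 ± 1.89 RPKM in the chow livers, Csf1r 20.2 ± 3.26 RPKM in the HFCF livers and 15.3 ± 3.56 RPKM in the chow livers and Clec7a 19.96 ± 10.4 RPKM in the HFCF livers and 3.14 ± 1.22 RPKM in the chow livers. In the HFCF livers the ranges of mean ± SD of Mrc1, Cyba, Csf1r and Clec7a overlapped, whereas in the chow livers Clec7a ranked 12th, Cyba 6th and Csf1r 3rd. Lyz2 made up 33.5% of the summed RPKM of the 43 genes in the HFCF livers and 24.8% in the chow livers, and Mrc1 made up 6.26% in the HFCF livers and 12.9% in the chow livers. The lowest levels were those of Ms4a7, Csf3r, Cd22 in the HFCF livers, each under 1 RPKM, and of Ly6c2, Ms4a7, Slamf7 in the chow livers.

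**Figure D3:**
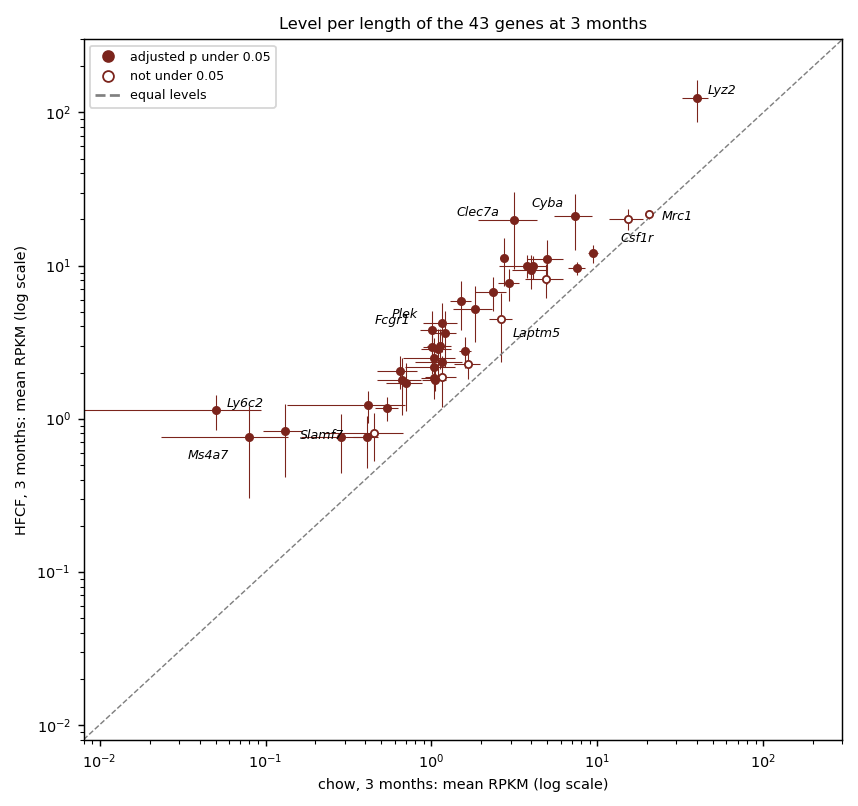
Mean RPKM of each of the 43 genes at 3 months in HFCF livers (vertical, log scale) against chow livers (horizontal, log scale), with SD over 3 libraries, shortened at the axis for Ly6c2. The filled points, adjusted p under 0.05, lie above the line of equal levels, with Lyz2 at the top. The open points also lie above the line, with Mrc1 close to it.

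At 1 month the same genes leaned the same way with small changes. 1 of the 43 rose and 0 fell, while 1.04% of all genes tested rose and 1.01% fell. The estimate was above 0 for 42 of the 43, with a median log2 fold change of 0.45 beside -0.00 for all genes, and 14 had an unadjusted p under 0.05. The HFCF livers lay above the chow livers for 17 genes and below for 1, against 10.1% and 10.5% of all genes. HFCF replicate 2 was the lowest of its group for 36 of the 43 genes and was below the highest chow liver for 24. These counts for replicate 2 were not made over all genes. The median log2 level of the set relative to the chow mean was 0.75 in HFCF replicate 1, 0.10 in replicate 2 and 0.45 in replicate 3.

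The gene that passed at 1 month was Wdfy4, with 15.99, 14.4 and 16.9 CPM in the HFCF livers and 10.6, 10.5 and 8.78 CPM in the chow livers. Every HFCF liver was above every chow liver (log2 fold change 0.66 ± 0.15 (SE), edgeR adjusted p = 0.0365). The call failed without any 1 of HFCF replicates 1 and 3 and chow replicates 1, 2 and 3, with an edgeR adjusted p of up to 0.144, and with total library size and limma-voom. The DESeq2 Wald test called 4 of the 43 genes at 1 month and limma-voom 0.

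Other genes of the set did not pass at 1 month. Fcgr1 had 5.09, 2.94 and 5.05 CPM in the HFCF livers and 2.26, 2.29 and 2.12 CPM in the chow livers (log2 fold change 0.97 ± 0.27 (SE), edgeR adjusted p = 0.0911). Msr1 had 35.2, 20.97 and 27.8 CPM in the HFCF livers and 17.3, 16.7 and 19.3 CPM in the chow livers (log2 fold change 0.66 ± 0.17 (SE), edgeR adjusted p = 0.0637). For both the groups were apart, with HFCF replicate 2 the closest to chow. Plek had 8.39, 7.21 and 8.05 CPM in the HFCF livers and 6.03, 5.63 and 4.89 CPM in the chow livers (log2 fold change 0.51 ± 0.25 (SE), edgeR adjusted p = 0.333), and Lyz2 had 77.95, 49.3 and 81.3 CPM in the HFCF livers and 51.6, 40.8 and 48.7 CPM in the chow livers, where HFCF replicate 2 lay among the chow livers (log2 fold change 0.57 ± 0.25 (SE), edgeR adjusted p = 0.293). Slamf7 was the exception in direction, with 0.280, 0.267 and 0.341 CPM in the HFCF livers and 0.565, 0.587 and 0.425 CPM in the chow livers. That was 14 counts in the HFCF livers and 25 in the chow livers, a ratio of 0.555 with a 95% counting interval of 0.267 to 1.11 (log2 fold change -0.83 ± 0.55 (SE), edgeR adjusted p = 0.495).

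Several genes rested on few counts at 1 month. Ly6c2 had 11 counts over the HFCF livers and 10 over the chow livers, a ratio of 1.09 with a 95% counting interval of 0.420 to 2.86. Ms4a7 had 30 counts over the HFCF livers and 20 over the chow livers, a ratio of 1.49 with an interval of 0.817 to 2.76. By library, Ms4a7 had 14, 2 and 14 counts in the HFCF livers and 16, 4 and 0 in the chow livers. Its ratio thus rests largely on chow replicate 1, a library that stood apart. In these summed counts neither gene differed between diets beyond counting error. Cd22 had 2.07, 2.14 and 2.59 CPM in the HFCF livers and 1.44, 0.821 and 1.27 CPM in the chow livers and Cd79b 1.45, 2.00 and 1.43 CPM in the HFCF livers and 0.502, 0.763 and 1.27 CPM in the chow livers, and in both genes the HFCF livers were all above the chow livers. Btk had 2.12, 0.935 and 2.05 CPM in the HFCF livers and 1.00, 1.58 and 1.49 CPM in the chow livers, Was 1.85, 1.54 and 1.64 CPM in the HFCF livers and 1.07, 1.41 and 1.13 CPM in the chow livers and Ncf4 1.73, 1.87 and 1.77 CPM in the HFCF livers and 1.19, 0.821 and 0.779 CPM in the chow livers. Of these 3 genes, Was and Ncf4 had their HFCF livers apart from chow and Btk had not.

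**Figure D4:**
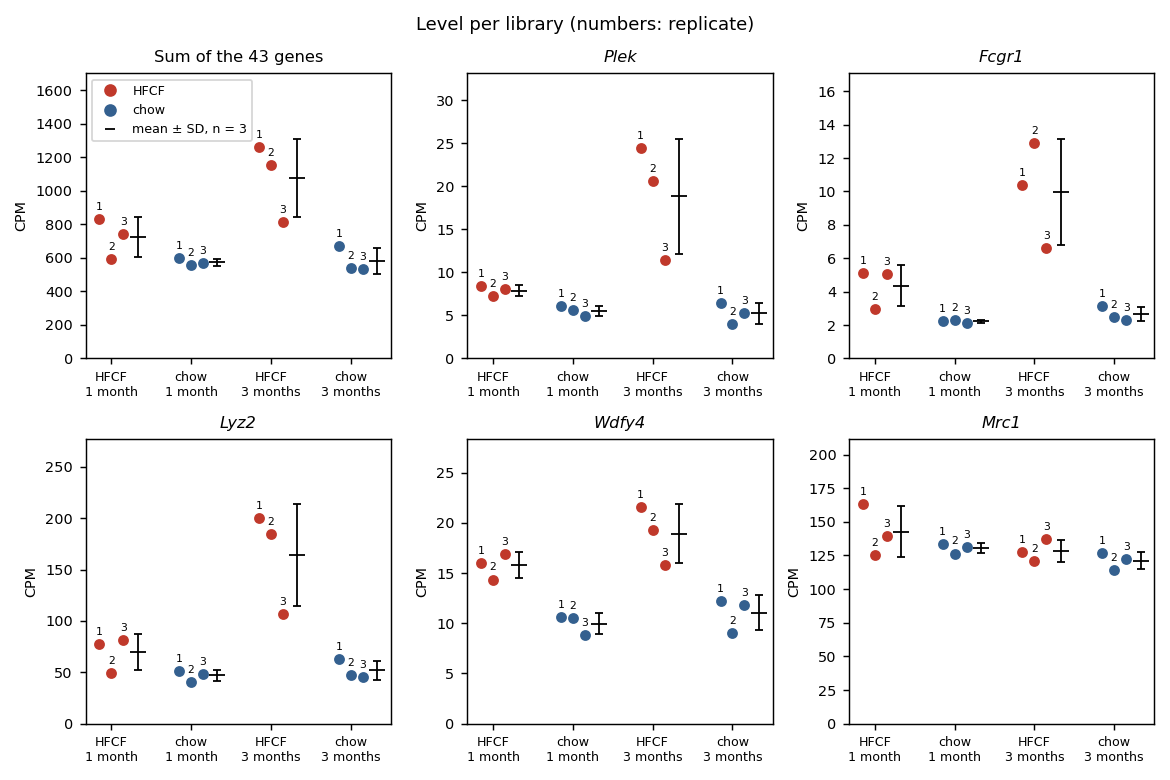
CPM per library (points, numbered by replicate) with mean ± SD (n = 3) for the summed 43 genes and for Plek, Fcgr1, Lyz2, Wdfy4 and Mrc1 in the 4 groups. The sum is 814 to 1260.4 CPM in HFCF livers at 3 months, above all chow livers, while Mrc1 overlaps between diets at both times.

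The question whether the effect of the HFCF diet differed between 3 months and 1 month was tested as the difference of the effects. edgeR called 0 of the 43 genes, with 0.0407% of all genes called, and 18 of the 43 had an unadjusted p under 0.05. The DESeq2 Wald test called 3, all higher at 3 months, and limma-voom 0. The estimate was above 0 for 42 genes, with a median of 0.76 log2 beside 0.01 for all genes tested. Slamf7 had the smallest adjusted p (difference 3.49 ± 0.69 log2, SE, edgeR adjusted p = 0.0683), then Ly6c2 (4.08 ± 1.01, edgeR adjusted p = 0.112) and Coro1a (1.50 ± 0.37, edgeR adjusted p = 0.113), and the 1 gene with an estimate below 0 was Mrc1 (-0.04 ± 0.14). Without HFCF replicate 3 at 3 months 12 of the 43 genes passed, and without both libraries that stood apart 8.

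Within the HFCF diet, livers at 3 months were compared with livers at 1 month. 24 of the 43 genes were higher at 3 months and 0 lower, while 9.25% of all genes were higher and 6.95% lower, and the median log2 fold change was 0.79 beside 0.02 for all genes. Slamf7 changed most, with 4.07, 4.84 and 1.52 CPM at 3 months and 0.280, 0.267 and 0.341 CPM at 1 month (log2 fold change 3.55 ± 0.44 (SE), edgeR adjusted p = 0.000609). Cd83 had 7.67, 7.73 and 3.79 CPM at 3 months and 1.68, 1.27 and 1.77 CPM at 1 month (log2 fold change 2.03 ± 0.29 (SE), edgeR adjusted p = 0.00111). For both genes the livers at 3 months were all higher than those at 1 month. By p, Coro1a, Plek and Fcgr1 followed, with log2 fold changes of 1.39 ± 0.25, 1.26 ± 0.23 and 1.20 ± 0.24 (SE). Of the 24 calls 7 held without each single library. The count was 7 without either of HFCF replicates 1 and 2 at 3 months, 9 without HFCF replicate 2 at 1 month, 8 without HFCF replicate 3 at 1 month and 8 with these 2 groups fitted alone. By scaling with total library size alone, 31 of the 43 genes were called, 87.6% of all genes called were higher against 57.1% with TMM, and the median of all genes moved to 0.22.

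Chow livers at 3 months were compared with chow livers at 1 month in the same way. edgeR called 0 of the 43 genes, with 0.00679% of all genes called, as did the DESeq2 Wald test and limma-voom, and 3 genes had an unadjusted p under 0.05. The median log2 fold change was 0.06. The comparisons above share groups of libraries with each other, so their values are not independent.

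Other genes of the same pathways, taken from 8 lists that leave out the 43, were counted at 3 months for context. Of all genes tested, 11.5% rose and 7.50% fell. Of the 145 genes tested of these lists and the marker lists below, 42.1% rose and 4.14% fell. Of 18 other leukocyte kinases, adaptors and phosphatases tested, 12 rose and 0 fell, with a median of 0.88. Those that rose included Prkcd, a protein kinase C (log2 fold change 0.95 ± 0.17 (SE), edgeR adjusted p = 0.00243), and Blnk, an adaptor of B cells and macrophages (log2 fold change 2.35 ± 0.43 (SE), edgeR adjusted p = 0.00267). Of 20 other leukocyte actin and GTPase genes, 14 rose and 0 fell, with a median of 1.06, led by Hcls1 (log2 fold change 1.22), Cyth4 (1.83) and Myo1f (2.05) by smallest p. Of 6 other oxidase and granule genes tested, 1 rose, near the share of all genes, and 0 fell.

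Related surface proteins were counted next, beside the same shares of all genes, 11.5% higher and 7.50% lower. Of 10 other CD48, SLAM and MS4A family genes, 7 rose and 0 fell, with a median of 1.74, and Slamf8 (log2 fold change 2.43 ± 0.40 (SE), edgeR adjusted p = 0.00162), Ms4a6d (1.81) and Ms4a6b (1.68) had the smallest p. Of 16 other tetraspanins and leukocyte membrane genes, 8 rose and 0 fell, with a median of 0.66, led by Cd81 (log2 fold change 0.74), Spn (1.89) and Cd300a (1.18) by smallest p. Without both libraries that stood apart, 14 of these 16 were called higher. Of 13 other Fc, lectin and scavenger receptors, 5 rose and 1 fell, with a median of 0.25. Cd36, a fatty acid and scavenger receptor that hepatocytes also express, rose (log2 fold change 2.49 ± 0.24 (SE), edgeR adjusted p = 0.000179), and so did Clec4n (log2 fold change 1.24 ± 0.29 (SE), edgeR adjusted p = 0.0109). The Clec4n call failed without any 1 of HFCF replicate 2 and chow replicate 2 (edgeR adjusted p up to 0.0601). Cd163, the haemoglobin scavenger receptor of resident macrophages, was the 1 that fell (log2 fold change -1.75 ± 0.22 (SE), edgeR adjusted p = 0.000697). Without both libraries that stood apart, 16 genes of this list were tested and 8 rose.

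Of 5 colony-stimulating factor and partner receptor genes tested, 2 rose and 0 fell. They were Csf2ra, the GM-CSF receptor alpha chain that pairs with Csf2rb (log2 fold change 0.96 ± 0.22 (SE), edgeR adjusted p = 0.00981), and Csf1, the ligand of Csf1r (log2 fold change 0.57 ± 0.17 (SE), edgeR adjusted p = 0.0358). The Csf2ra call failed without any 1 of HFCF replicate 1 and chow replicate 2 (edgeR adjusted p up to 0.0548). The Csf1 call failed without any 1 of HFCF replicates 1 and 2 and chow replicates 1, 2 and 3 (edgeR adjusted p up to 0.163). The median of 15 myeloid and lymphoid transcription factors tested beside Spi1 was 0.35. While 11.5% of all genes rose and 7.50% fell, 3 of these factors rose and 0 fell. These were Cebpe, a factor of granulocyte maturation (log2 fold change 1.71 ± 0.23 (SE), edgeR adjusted p = 0.000543), Irf8, a partner of PU.1 (log2 fold change 1.24 ± 0.22 (SE), edgeR adjusted p = 0.00243), and Batf3, a dendritic cell factor (log2 fold change 2.08 ± 0.54 (SE), edgeR adjusted p = 0.0179). The Batf3 call failed without any 1 of HFCF replicate 2 and chow replicate 2 (edgeR adjusted p up to 0.0795). Without both libraries that stood apart, 16 of these factors were tested and 5 rose.

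Markers of the cell types a liver can hold moved as follows at 3 months, and their part in the results above was not tested. Of all genes tested 11.5% rose and 7.50% fell, so 1 call among 8 markers is near these shares. Hepatocyte markers fell in 5 of 8, among them Cps1 (log2 fold change -1.72 ± 0.29 (SE), edgeR adjusted p = 0.00197), with sums that did not overlap between diets. Of 8 Kupffer cell markers, Cd5l rose (log2 fold change 1.38 ± 0.35 (SE), edgeR adjusted p = 0.0219) and Cd163, also counted above among scavenger receptors, fell. The Cd5l call failed without any 1 of HFCF replicates 1 and 2 and chow replicates 2 and 3 (edgeR adjusted p up to 0.0895), and 2 Kupffer cell markers rose by DESeq2, by limma-voom and with total library size. The Kupffer cell sums were 537 to 712 CPM in the HFCF livers and 456 to 486 CPM in the chow livers. Yet the median log2 fold change of the 8 Kupffer cell markers was 0.12 at 3 months. At 1 month it was 0.59, and 0 of the 8 passed by edgeR. Dendritic cell markers rose in 5 of 7, Itgax with the smallest p (log2 fold change 3.42 ± 0.56 (SE), edgeR adjusted p = 0.00260), with sums of 24.7 to 41.5 CPM in the HFCF livers and 19.3 to 19.9 CPM in the chow livers. The neutrophil markers S100a8 (log2 fold change 1.63 ± 0.47 (SE), edgeR adjusted p = 0.0263) and S100a9 (log2 fold change 1.50 ± 0.45 (SE), edgeR adjusted p = 0.0316) rose, the 2 tested of 10 listed, with sums of 2.28 to 4.06 CPM in the HFCF livers and 0.458 to 1.89 CPM in the chow livers. The S100a8 call failed without any 1 of HFCF replicates 1 and 2 and chow replicates 2 and 3 (edgeR adjusted p up to 0.118). The S100a9 call failed without any 1 of HFCF replicates 1 and 2 and chow replicates 2 and 3 (edgeR adjusted p up to 0.135).

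Lymphocyte markers were scarce. Of 11 T and NK cell markers, 7 were in the table, 2 were tested and 0 passed by edgeR, DESeq2 or limma-voom (0 at an unadjusted p under 0.05). Their sum was 2.76 to 4.16 CPM in the HFCF livers and 2.42 to 3.66 CPM in the chow livers. Of 8 B and plasma cell markers, 4 were tested and 0 passed by the same 3 tools (0 at an unadjusted p under 0.05), with sums of 3.86 to 9.87 CPM in the HFCF livers and 2.17 to 5.82 CPM in the chow livers, beside the rise of Cd79b and Cd22 given above. Endothelial markers passed in 0 of 6 by edgeR, DESeq2 and limma-voom (1 at an unadjusted p under 0.05), with sums of 389.7 to 398 CPM in the HFCF livers and 362 to 387 CPM in the chow livers. Stellate cell markers passed in 1 of 8 by edgeR, Pdgfrb (log2 fold change 1.08 ± 0.30 (SE), edgeR adjusted p = 0.0306), with sums of 331 to 443 CPM in the HFCF livers and 264 to 339.7 CPM in the chow livers. The Pdgfrb call failed without any 1 of HFCF replicates 1 and 2 and chow replicates 2 and 3 (edgeR adjusted p up to 0.123) and with only the groups compared. Of the stellate cell markers 3 passed by DESeq2, 2 by limma-voom, 2 with total library size and 4 without both libraries that stood apart, and of the endothelial markers 1 passed under each of the last 2 settings.

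At 1 month 1 of the 145 genes tested of these lists rose and 1 fell. This is 0.690% in each direction, near the shares of all genes, 1.04% and 1.01%. An edgeR unadjusted p under 0.05, in either direction, was more frequent in some lists. It was found for 4 of 8 Kupffer cell markers, 4 of 13 other Fc, lectin and scavenger receptors and 4 of 15 transcription factors. It was found for 0 of 8 stellate cell markers and 0 of 7 dendritic cell markers. Cd36 rose (log2 fold change 0.98 ± 0.23 (SE), edgeR adjusted p = 0.0485), and the call failed without any 1 of HFCF replicates 1 and 2 and chow replicates 1, 2 and 3 (edgeR adjusted p up to 0.183). It also failed with limma-voom, with no filter on low counts, without both libraries that stood apart and with only the groups compared. The hepatocyte gene Cyp3a11 fell (log2 fold change -1.79 ± 0.41 (SE), edgeR adjusted p = 0.0487), and its call failed without any 1 of HFCF replicate 1 and chow replicates 1, 2 and 3 (edgeR adjusted p up to 0.193). It also failed with total library size, with no filter, without both libraries that stood apart and with only the groups compared. Hepatocyte marker sums at 1 month were 65122 to 85791 CPM in the HFCF livers and 87223 to 107680 CPM in the chow livers. They did not overlap between diets at 1 month either, with a median log2 fold change of -0.41 over the 8 markers.

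**Figure D5:**
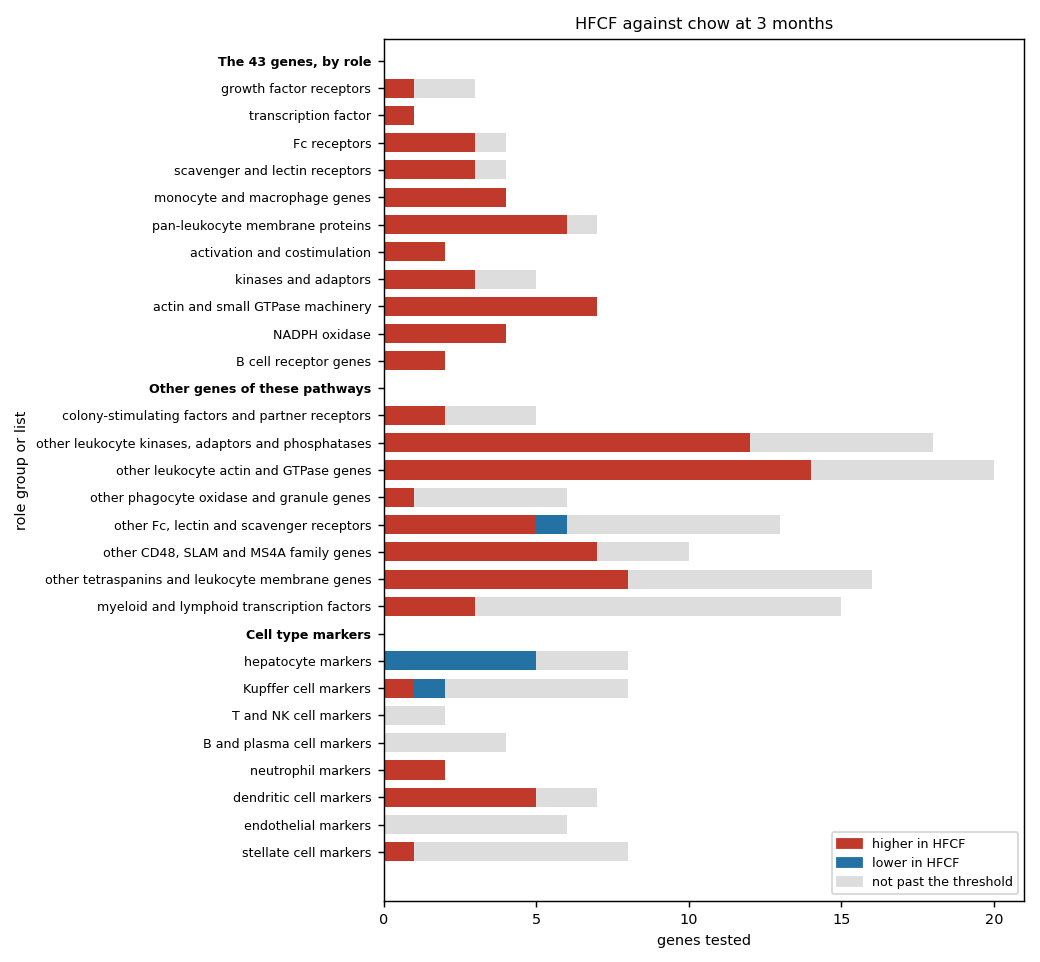
Number of genes tested at 3 months (bar length) that were higher in HFCF livers (red), lower (blue) or not past the threshold (grey), for the role groups of the 43 genes, the other genes of these pathways and the cell type markers. The actin and kinase lists are mostly red, with 14 of 20 and 12 of 18, and hepatocyte markers are mostly blue, with 5 of 8. Of all genes tested, 11.5% were higher and 7.50% lower.

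Some counts of the set are uncertain because annotated exons overlap on the other strand, and which strand was counted is not known here. This concerns Csf1r, Cd52, Coro1a, Plek, Ncf1, Lyn, Slamf7, Ms4a6c, Cd22, Lcp1, Lcp2 and Dock2, while Csf2rb overlaps a microRNA gene on its own strand. By the annotation on mm10, Plek spans chr11:16971206-17052381, Fcgr1 chr3:96282909-96294256, Lyz2 chr10:117277334-117282321, Wdfy4 chr14:32959547-33185508 and Mrc1 chr2:14229414-14332057.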

How the data were processed

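Total RNA of 12 flash-frozen livers was depleted of ribosomal RNA and sequenced with a stranded TruSeq kit, per the labels' protocols. The authors deposited 1 table of read counts per gene, made on genome build mm10 per the submitters' processing notes, with Ensembl identifiers and symbols. The sources used here name no aligner, counting tool or counted strand. The FPKM values, log2 ratios and scores in the authors' deposited table were not used here, and the bases of each gene model from it gave RPKM. 15306 of the 16035 identifiers were found in GENCODE M21, and 1 empty line was left out.

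Gene tests were run with edgeR 4.0.16 under R 4.3.3. filterByExpr left 14725 genes and removed 1310, TMM factors were 0.921 to 1.14, and every comparison came from a single quasi-likelihood fit with 4 group means and 12 libraries, robust setting on, with a common biological coefficient of variation of 0.153. p-values were adjusted by Benjamini and Hochberg over all genes tested, with a threshold of 0.05. They set a difference against the spread between livers of the same group, estimated jointly over the 4 groups and not in each. CPM used TMM-scaled totals, and RPKM divides CPM by the gene model's length in kilobases. No 2 libraries of a group agreed within sampling noise. Replicate numbers are not said to pair livers, and the check on them stands with the alternatives.

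The 43 genes, their 11 role groups, the 8 pathway lists, the 8 marker lists and the alternatives were chosen with earlier results of these data known. In each role group up to 3 genes with the smallest p at 3 months have values per library, with every gene called at 1 month and every gene under 30 counts in each library of a group. From each list up to 3 genes with the smallest p are named, with members that moved against their list, except for some genes not reported here. Promoter windows came from RefSeq on GRCm38.p6. Counting intervals are 95% and cover counting error only. Each alternative in turn used DESeq2 1.42.0 (Wald test or size factors), limma-voom 3.58.1, total library sizes, other filters, a replicate block, fewer groups or fewer libraries. The fit was tested on simulated data, and figures were drawn with matplotlib 3.10.9.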

Additional observations from a re-analysis of the deposited data

How the results depend on the processing

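At 3 months the number of the 43 genes called stayed between 28 and 40 under every alternative tried, without a reversed estimate, although the number of all genes called ranged from 1255 to 3631 when 1 library was left out. At 1 month, members called were 0 with total library size and limma-voom, 4 with DESeq2, 2 without both libraries that stood apart and 0 to 4 with 1 library left out, and all genes called were 641 with DESeq2, 149 without both, 147 with only the groups compared and 65 to 289 with 1 library left out. For the difference of the effects, members called were 3 with DESeq2, 8 without both and 0 to 12 with 1 library left out, and all genes called, 6 in the fit reported, were 0 with total library size, 367 with DESeq2, 3 with limma-voom, 48 with the replicate block, 635 without both and 0 to 878 with 1 library left out. For HFCF at 3 months against 1 month, members called were 8 with only the groups compared and 7 to 33 with 1 library left out, and all genes called were 3907 with total library size, 3808 without both, 1298 with only the groups compared and 732 to 3562 with 1 library left out. For chow over time, all genes called were 2 with DESeq2 size factors, total library size, no filter or without both, 69 with DESeq2's Wald test, 17 with only the groups compared and 1 to 6 with 1 library left out. The causes were not tested.

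The replicate numbers showed no clear pairing of the livers, and with 3 livers per group the check cannot settle it. Over 18 same-numbered pairs the correlation of deviations ran from -0.173 to 0.19 and exceeded 0.1 in 5. Between libraries of different groups with unlike numbers it ran from -0.248 to 0.24. With the replicate block the members called were 1 at 1 month, 38 at 3 months, 0 in the difference, 25 for HFCF over time and 0 for chow over time. With the block the calls of Pdgfrb at 3 months, Cd36 and Cyp3a11 at 1 month, and Was and Cd84 for HFCF over time were not made.

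Estimates that changed sign in some alternative were not called there. With 1 library left out, the log2 fold change at 1 month ran over -0.0585 to 0.226 for Cd83, -0.0268 to 0.691 for Ms4a6c and -0.444 to 0.522 for Ly6c2. The difference of the effects then ran over -0.129 to 0.0604 for Mrc1, -0.111 to 0.271 for Csf1r, -0.0234 to 0.561 for Csf2rb and -0.0251 to 0.228 for Wdfy4, and HFCF over time over -0.160 to 0.328 for Fcgr3 and -0.0538 to 0.295 for Cd79b. Among markers at 3 months it ran over -0.329 to 1.44 for Jchain and -0.147 to 0.418 for Cr2. With total library size Mrc1 stood at 0.0551 in the difference and 0.0471 for HFCF over time, and Cd4 at 0.0221 at 3 months. Mean levels under about 1 CPM are limited by counts. Among others this concerns Ly6c2 in every group, and Ms4a7 and Slamf7 in every group but HFCF at 3 months. The 3 livers per group limit every call.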
